A study of Mus musculus with 6 samples.

Results

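Long intergenic noncoding RNA (lincRNA) genes with better measured levels were described in small RNA libraries of the newborn mouse heart. The genes were selected on the authors' mean normalized count over all samples: rows of the class lincRNA with a mean of at least 10 were kept, and Mir17hg, Mirg, Meg3 and Rian were left out by name. This gave 177 of the 530 lincRNA rows in a table of 10065 genes. The libraries came from whole hearts of SV129 mice at postnatal day 6, from 3 ADAR2-/- and 3 wild-type animals. The ADAR2-/- mice lack Adarb1, the gene of an adenosine deaminase that edits double-stranded RNA, and carry Gria2 R/R, a glutamate receptor allele that encodes the edited form of the subunit. By the study's methods the wild-type siblings also carried Gria2 R/R, while their genotype label does not name it. The gene is deleted in every cell of the mouse and not in a chosen cell type of the heart.

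The table holds 1 mean for each gene over all libraries and no value per animal. The spread between animals and the depth of each library are therefore unknown, no error can be given for any mean below, and no test was run. The table's fold changes between the genotypes are the authors' own comparison and were not used, so the genotypes are not compared. In whole hearts, fewer cells of a type and less RNA per cell cannot be told apart.

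The study's methods describe the animals as female, yet 20 rows of the table lie on the Y chromosome. Among them were the protein-coding genes Usp9y with a mean of 25.4, Uty with 22.7, Kdm5d with 19.5, Eif2s3y with 10.2 and Ddx3y with 9.52. Which libraries these reads came from cannot be read from a mean over all samples. The 2 Y-linked lincRNA genes described below are given with this in view.

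LincRNAs are transcribed from their own promoters between protein-coding genes and are usually capped, spliced and polyadenylated like mRNA. They are known for acting in the nucleus, at chromatin or in nuclear bodies, and some serve as precursors from whose exons or introns miRNAs or snoRNAs are cut. In heart development the best studied is Fendrr, which is made in the lateral mesoderm of the embryo and is needed for the heart and the body wall. Libraries of short RNA hold mature small RNAs and short pieces of longer transcripts, so a mean on a lincRNA gene counts short reads that lie on it and is not a measure of the full-length RNA.

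What the means count was first checked on miRNA genes that lie wholly inside an intron of another gene of the table. In 20 of 20 such pairs on the same strand the mean of the surrounding gene was at least that of the miRNA gene. Myh7, the slow myosin heavy chain gene, had a mean of 943, and Mir208b in its intron had 938, or 99.4% of it. In 6 of the 20 pairs the miRNA gene reached at least 90% of the surrounding gene. At these pairs the means do not contradict a count over the whole gene span, introns included. How reads on the lincRNA genes were counted was not tested.

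The heart label was checked against marker genes. Of 14 cardiomyocyte markers 11 had a row, with means from 2.59 to 943 (Myh7), while Tnni3, Nppa and Myl7 were not among the rows. Mir208b in an intron of Myh7 had 99.4% of its mean. Mir208a in an intron of Myh6 had 413, or 97.3% of the mean of Myh6 (425). How far these means reflect myosin mRNA was not tested. Endothelial markers had 5 of 5 rows (2.59 to 48.9) and fibroblast markers 4 of 5 (5.40 to 44.8). Rows were found for 3 of 5 erythroid markers (2.45 to 4.71), 1 of 3 leukocyte markers (Ptprc, 7.93), 1 of 4 skeletal muscle markers (Acta1, 5.79), 0 of 3 smooth muscle markers and 0 of 2 liver markers. All 3 neuron markers had a row (2.26 to 173), with Rbfox3 the highest. The marker means are not per kb, so they do not rank the cell types.

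The lincRNA genes spanned a wide range of means. The 177 genes ran from 10.01 to 1117, which is a ratio of 112, with a median of 20.2 and quartiles of 14.5 and 37.1. There were 87 genes with a mean from 10 to under 20, 65 from 20 to under 50, 12 from 50 to under 100 and 13 of at least 100. They held 4.23% of the summed mean of the table and 84.5% of that of all lincRNA rows. The 4 highest genes held 34.8% of the genes' own sum and the 10 highest held 50.1%, so the sum is set by few of them. Of all rows 36.0% had a mean of at least 10, against 33.8% of lincRNA rows and 36.5% of protein-coding rows. Of the 177 identifiers 172 had an entry in GENCODE M21, and 106 of these bear a Gm number and 58 a Riken name, which are given to genes without an assigned function. The other 8 were AY036118, Fendrr, D5Ertd615e, Pvt1, Otx2os1, Platr30, Pantr1 and Lncenc1. In GENCODE M21 161 of the 172 are still lincRNA, 5 are processed transcripts, 4 antisense, 1 a bidirectional promoter RNA and 1 protein-coding.

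**Figure D1:**
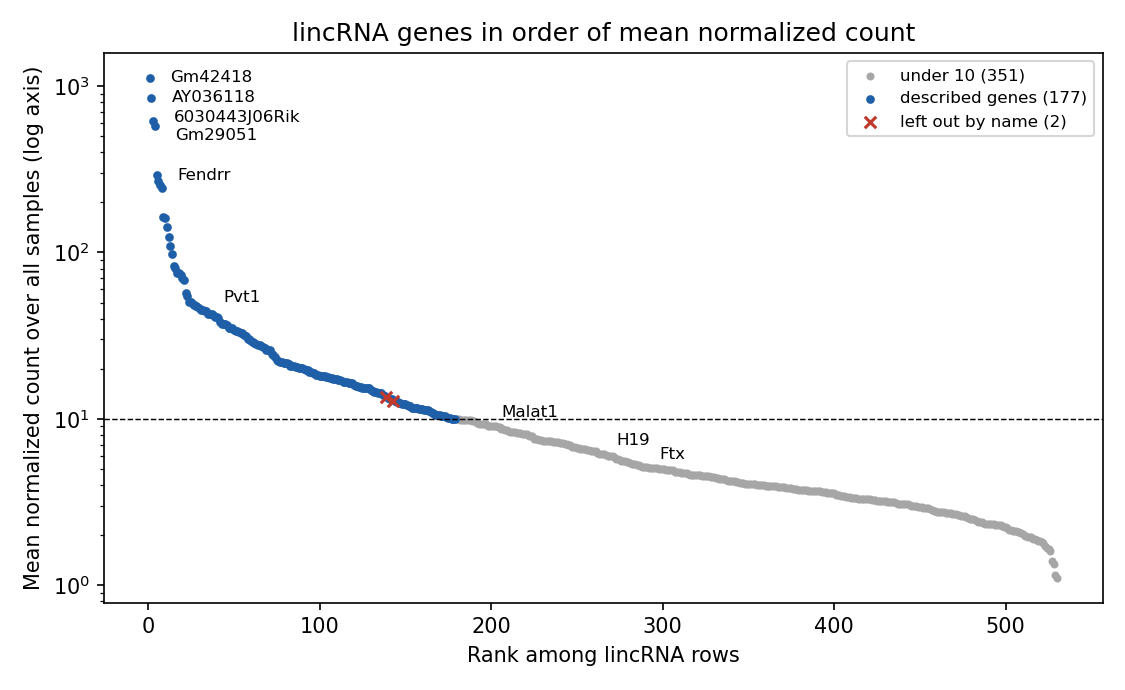
Mean normalized count over all samples (log axis) against rank for the lincRNA rows. Blue points are the 177 genes described, gray points lie under the minimum of 10 (dashed line) and red crosses are the 2 lincRNA genes left out by name; the curve falls steeply over the first ranks and Malat1 lies just under the line.

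The highest means lay on the ribosomal RNA locus of chromosome 17. Gm42418 (ENSMUSG00000098178, GRCm38, 39846958 to 39848788, plus strand) had a mean of 1117 and was row 11 of the whole table. AY036118 (39847113 to 39848035, minus strand) had 847 and lies inside it on the other strand. Both consist of a single exon, and both lie inside the ribosomal RNA gene CT010467.1 on the minus strand, whose own mean was 2050. Cut into stretches of 22 bases, AY036118 had 902 of 902 stretches in common with the ribosomal RNA gene on its own strand, and Gm42418 had 1762 of 1810 in common with its opposite strand. Together these 2 genes held 21.7% of the summed mean of the 177 genes. Without them the genes' share of the table fell from 4.23% to 3.31%, and the median was 20.2 as before. The part of ribosomal RNA fragments in their means was not tested.

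Outside this locus the highest gene was 6030443J06Rik (chromosome 5, 22550432 to 22807850, plus strand), with a mean of 618. It spans 257 kb and overlaps Lhfpl3 on the same strand, a protein-coding gene with a mean of 468. A930003O13Rik lies inside it on the opposite strand, with a mean of 20.2 over a span of 7.998 kb. Per kb of span A930003O13Rik had 2.52 and 6030443J06Rik 2.40. The next highest mean was that of Gm29051 (chromosome 17, 60001418 to 60130875, minus strand), with 573. Unlike the 3 genes above it, Gm29051 overlaps no other row. Its nearest protein-coding gene, Nudt12, is 988 kb away, and 0 of the 22-base stretches of its transcript occur in a transcript of another gene. Its exons cover 369 bases, 0.285% of its span, and the rest of the span was not part of that comparison.

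The next genes by mean were Fendrr with 291, Gm33758 with 269, Gm15668 with 256, Gm42705 with 244, Gm12371 with 162 and Gm26561 with 160.1. Gm33758 and Gm42705 lie in the same region of chromosome 3 and on the same strand, from 143603805 to 143624575 and from 143743377 to 143827012. They share 0 stretches, and their nearest protein-coding gene is Lmo4, which encodes a LIM-domain transcription cofactor, 564 kb and 362 kb away. Gm12371 lies 1.22 kb from Lingo2. Gm26561 is a gene of 515 kb on chromosome 17 that contains Myom1, which encodes a protein of the sarcomere's M-band, and Lpin2. Myom1 had a mean of 4.71 and Lpin2 one of 11.0, both under that of Gm26561. These means are not per kb, and both genes are shorter than Gm26561.

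No gene among the 177 is a small-RNA host by its name. The lincRNA rows named as hosts were Mir17hg (13.4), which the selection leaves out, and Mir155hg (3.81), Mir142hg (2.76), Mir9-3hg (2.41) and Snhg12 (2.33), all under the minimum. By position, however, 21 of the 172 genes with an entry held a miRNA, snoRNA or snRNA gene of the annotation on their own strand. On either strand 38 did, and 75 of the 172 span at least 100 kb. How many would hold such a gene by their length alone was not tested. On the same strand a miRNA gene lay in 11 of the 21, a snRNA gene in 6 and a snoRNA gene in 4. Of the 27 small RNA genes inside them on that strand, 8 had a row of their own in the table. These 8 lay in 4 lincRNA genes: 6720427I07Rik, Gm28653, Gm20732 and D230017M19Rik.

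Mature miRNAs from 3 lincRNA loci, 1 arm of each hairpin, are shown because they are short RNAs that lie within these genes. Sequences are from RefSeq (GRCm38.p6), 5′ to 3′, with the seed, bases 2 to 8, in capitals.
let-7a-5p, from Mirlet7a-1 in 6720427I07Rik: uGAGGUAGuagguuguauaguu
let-7d-5p, from Mirlet7d in 6720427I07Rik: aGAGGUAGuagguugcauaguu
let-7f-5p, from Mirlet7f-1 in 6720427I07Rik: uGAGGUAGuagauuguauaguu
miR-133b-3p, from Mir133b in Gm28653: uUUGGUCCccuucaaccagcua
miR-181a-5p, from Mir181a-1, opposite Gm26936: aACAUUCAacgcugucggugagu
The 3 let-7 miRNAs share the seed GAGGUAG. Let-7 miRNAs are known for rising as cells differentiate, and miR-133b is a miRNA of heart and skeletal muscle.

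6720427I07Rik (chromosome 13, 48532905 to 48546500, minus strand) stood at a mean of 28.0. Its single transcript holds Mirlet7a-1, Mirlet7f-1 and Mirlet7d in its exons. Mirlet7d had a mean of 27.7 and Mirlet7f-1 one of 25.8, or 99.0% and 92.1% of that of the lincRNA gene. Mirlet7a-1 stood at 51.1, above the gene that contains it, and is the exception to the order seen at intronic miRNA genes. Mirlet7a-2, another let-7a gene, in an intron of 3110039I08Rik, had 52.5, and Mirlet7f-2 in Huwe1 had 22.7. How reads that fit more than 1 let-7 gene were counted is not given, so these means are uncertain as values of single loci. Gm24111, a miRNA annotation on the strand opposite to Mirlet7f-1, had the same mean of 25.8.

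Gm28653 (chromosome 1, 20669882 to 20684298, plus strand) had a mean of 33.2. It holds Mir133b in an exon and Mir206, a skeletal muscle miRNA, in an intron. Mir133b had a mean of 32.9, or 99.3% of that of Gm28653, and Mir206 was not among the rows. Gm20732 (chromosome 15, 68340983 to 68363176, minus strand) had 14.3, and Mir30d in an exon had 13.6, or 95.1%. At Gm28653 and Gm20732 the mean of the lincRNA gene was thus close to that of the miRNA gene inside it.

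D230017M19Rik (chromosome 1, 72236465 to 72274869, plus strand) had a mean of 48.1 and holds 3 snRNA genes in its introns. Gm24497 had 24.1, Gm23472 13.8 and Gm25939 8.60. Each lies below the lincRNA gene, and their sum of 46.6 is 96.8% of its mean. At 6720427I07Rik the same sum over the 3 let-7 genes was 105, or 374% of the mean of the lincRNA gene. As let-7 reads may fit several genes, this sum is uncertain as a value of that locus. SnRNAs are the RNA parts of the spliceosome and have many copies in the genome. Gm26936 (mean 20.9) carries Mir181a-1 (12.9) in an intron on the opposite strand.

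**Figure D2:**
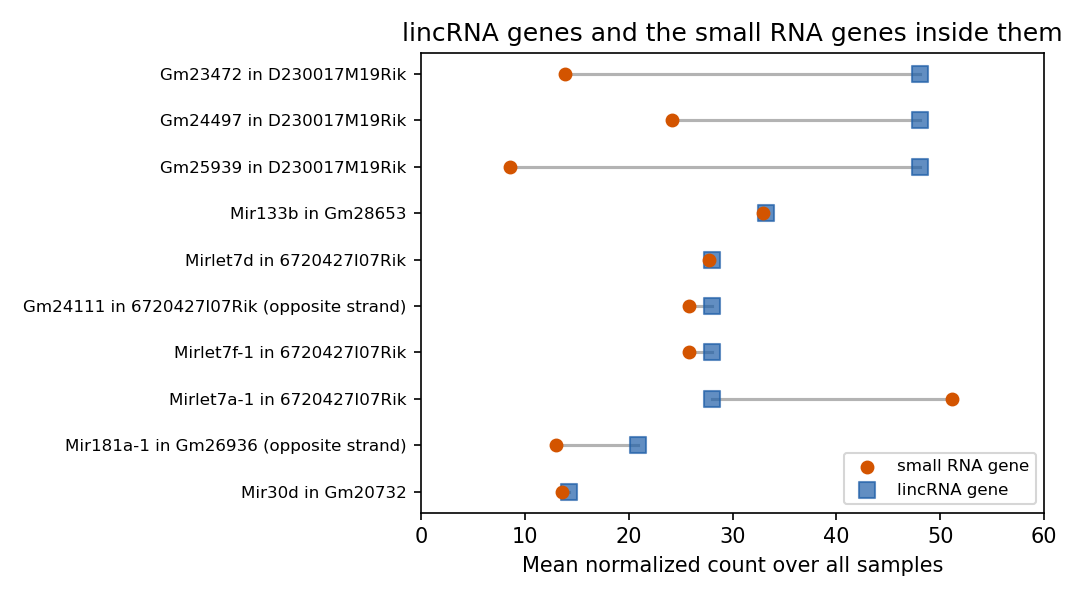
Mean normalized count of each small RNA gene with a row (orange circles) and of the lincRNA gene that contains it (blue squares). Mir133b, Mirlet7d and Mir30d lie on or next to the value of their lincRNA gene, Mirlet7a-1 lies above it at 51.1, and each of the 3 snRNA genes lies below D230017M19Rik.

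The other genes with a known miRNA inside an exon had low means. 4833445I07Rik, which holds Mir191 and Mir425, had 13.3. C130071C03Rik, the Mir9-2 gene near Mef2c, a gene of a heart and muscle transcription factor, had 10.01. None of these 3 miRNA genes was among the rows.

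Of 14 listed nuclear noncoding RNAs 7 had a row, 4 of these in the class lincRNA, and 1 of the 4 passed the minimum, against 33.8% of all lincRNA rows. With 4 genes this count says nothing particular to nuclear lincRNAs. This was Pvt1 (chromosome 15, 62037986 to 62378096, plus strand), a neighbour of Myc known from its amplification in tumours, with a mean of 44.5. Malat1, an abundant RNA of nuclear speckles, had 9.11 and fell short of the minimum. Gm26917 had 8.15 and Ftx, of the X inactivation centre, 5.11. Kcnq1ot1 (7.14) and Airn (5.35), which silence imprinted clusters, are classed as antisense, and Snhg14 (31.0) as a processed transcript. Neat1, Xist, Tsix, Jpx, Firre, Miat and Tug1 were not among the rows.

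Of 10 listed cardiac or imprinted lincRNAs 3 had a row and 1 was in the selection. Fendrr (chromosome 8, 121054882 to 121083110, minus strand) reached a mean of 291 and was row 85 of the table. It lies inside Gm20388, an annotated protein-coding gene on the opposite strand with a mean of 976. These means are not per kb: Fendrr spans 28.2 kb, while Gm20388 runs from 119910841 to 124345722. Per kb of its span Fendrr had 10.3. How strand entered the counts is not given in the sources used here, so reads of the 2 genes cannot be told apart. H19, an imprinted RNA of fetal tissues, had 6.14, and Dnm3os, the antisense precursor of miR-199 and miR-214, had 15.4 in the class antisense. Mhrt, Bvht, Chaer, Hotair, Carmn, Peg13 and Nespas were not among the rows. Among the members with names of their own, Otx2os1 next to Otx2 had 19.8, Pantr1 next to Pou3f3 had 15.2 and Lncenc1, an RNA of embryonic stem cells, had 12.4.

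Levels were compared between genes per kb. Per kb of the union of exons the median over 172 genes was 13.0. The highest was Gm29051 with 1553, followed by AY036118 with 918, Gm33758 with 661, Gm42418 with 610.2 and Gm15668 with 377. The lowest were C130071C03Rik with 1.77, F630040K05Rik with 1.95 and Gm43154 with 2.10. All 3 have over 5 kb of exons, while Gm29051 has 369 bases. Across the 172 genes Spearman's rho of the level per kb of exons with exon length was -0.74. Exon length is the divisor of this level, and the mean was nearly unrelated to it (rho 0.03). A negative rho thus follows from the division, and the order per kb of exons largely follows exon length for that reason.

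Per kb of the whole gene span, the order was another, and only 3 of the 10 highest by exons were among the 10 highest. AY036118 (918) and Gm42418 (610.2) led, since their span is a single exon. Gm29664, a gene of 463 bases with a mean of 14.8, was next with 31.9 and Gm29051 dropped to 4.43. Exons covered a median of 2.57% of the span, and the spans ran from 0.463 to 872 kb with a median of 80.02 kb. As it is not known whether intronic reads were counted, neither scale is a level of spliced RNA. Spearman's rho of the mean itself over the 172 genes was 0.03 with exon length and 0.16 with span. Over the 520 lincRNA rows with an entry it was 0.11 and 0.31. All these are correlations across genes of the same libraries and are given as a description. The lincRNA rows under the minimum had a median span of 40.7 kb.

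**Figure D3:**
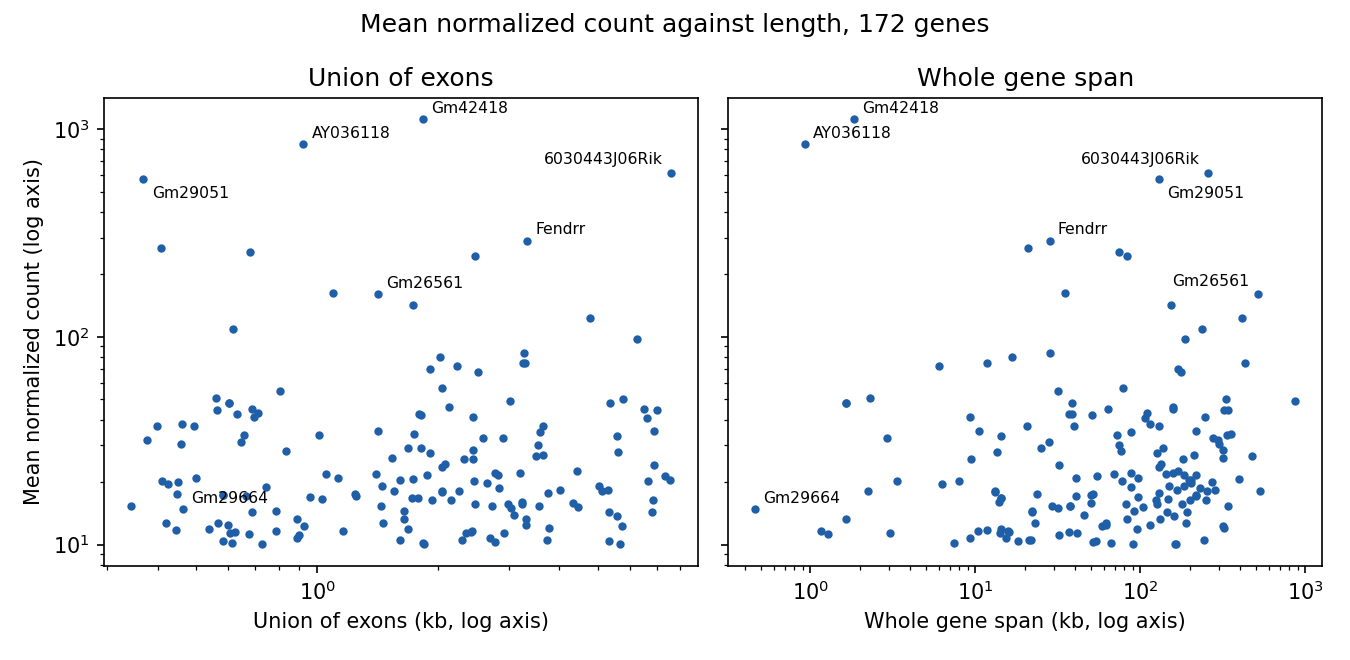
Mean normalized count (log axis) against the union of exons (left) and the whole gene span (right), both in kb on log axes, for the 172 genes with an entry in GENCODE M21. Gm29051 has 369 bases of exons but a long span, while Gm42418 and AY036118 have the same length on both axes.

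Some genes had equal means and near-equal sequence. Gm29277 and Gm29089, both on the Y chromosome (206151 to 207788, plus strand, and 321659 to 323295, minus strand), each had a mean of 47.9. Their transcripts of 602 bases are identical, and 0 of the 581 stretches occur in a transcript from another chromosome. Their transcript opens as follows (GENCODE M21), shown because reads of it cannot be assigned to either gene.
Gm29277, bases 1 to 60: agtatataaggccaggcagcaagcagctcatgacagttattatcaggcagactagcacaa
Gm14144 and 4930442J19Rik on chromosome 2 both had 16.7 and share 1553 stretches, 91.4% of the first and 86.5% of the second. Their neighbour Gm14152 had 17.5. Gm17575 and Platr30 on chromosome 3 had 18.1 and 17.9 and share 94.9% of their stretches. Gm26573 (49.3) shares 84.3% of its stretches with C230088H06Rik (26.6), and here the means differ although the sequences overlap. In each of these sets the genes are uncertain as separate measurements, since reads of the shared part fit both.

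Over all 172 genes the median share of stretches found in another gene's transcript was 3.15%. It was under 5% for 105 genes, 0 for 29 and at least 80% for 17. Of these 17, 9 had their closest partner on the same strand and 8 on the opposite one. AY036118 is counted among the latter, although it shares as many stretches with the ribosomal RNA gene on its own strand. Only annotated transcripts were compared, and exons covered a median of 2.57% of the span. A low share therefore says nothing about reads in introns.

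Of the 172 genes 113 overlapped no other row of the table and 59 did. The overlap was on the same strand for 27 of these and on the opposite strand alone for 32. A protein-coding row was overlapped by 24 genes, and 27 overlapped another of the 177. In 31 of 41 overlaps with a protein-coding row the lincRNA gene had the higher mean, but the lincRNA genes were selected for a mean of at least 10 and the protein-coding rows were not, so the selection favours this direction. 1600010M07Rik had 142, and AA474408 inside it on the same strand had 114, while Ipo7 on the opposite strand had 2.79. Gm26786 (97.7) contains Smpd3 (82.3) on its own strand and Gm10629 (80.2) on the other, and these 3 means lie close together. Gm14812 (42.5) contains Gm14809 (41.2) on the same strand. In contrast, Gm15398 (27.5) lies inside Pcdh15 (272) and 4930445B16Rik (20.9) inside Lrrc4c (268), both on the opposite strand. Here the inner gene had the lower mean, but these means are not per kb. Gm15398 spans 126 kb within Pcdh15, which runs from 73099342 to 74649737. The span of 4930445B16Rik is 96.5 kb within Lrrc4c, which runs from 96318169 to 97631666. The lower means of the inner genes therefore cannot be read as lower levels per kb. Whether the close values come from the same reads was not tested.

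**Figure D4:**
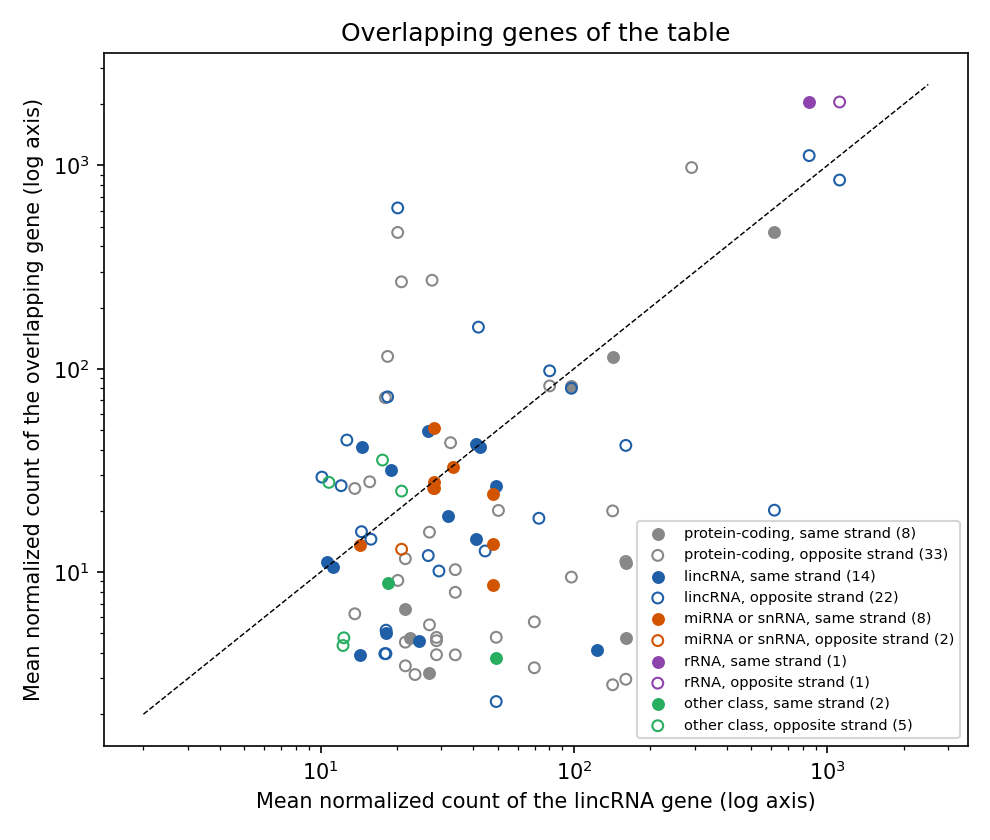
Mean normalized count of each overlapping gene of the table against that of the lincRNA gene, both on log axes, with the dashed line marking equal means. Filled symbols are on the same strand and open ones on the opposite strand; most miRNA genes lie near the line, and the lincRNA genes alone were selected for a mean of at least 10.

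The minimum did not mark a gap in the data. Just inside it were 4930544M13Rik and C130071C03Rik, both with 10.01, and just outside were 4930556G22Rik with 9.98 and Gm12132 with 9.95.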

How the data were processed

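Small RNA was sequenced from hearts of 3 ADAR2-/- and 3 wild-type mice. Per the submitters' processing notes and the paper's methods, the authors removed adaptors with cutadapt, mapped reads with Bowtie (mm9 is named) and compared genotypes with DESeq; versions, annotation and the handling of strand, overlapping genes and reads with several matches are not given in the sources used here. A further paragraph of the methods names another sequencer and NextGenMap. The signal used is the authors' mean normalized count per Ensembl gene over all samples, as deposited: read counts divided by a size factor per library, then averaged. The table's other 6 columns of values, the authors' fold changes, their errors, statistic and p-values, were not used. No depth or error per sample is known.

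Identifiers were matched to GENCODE M21 (GRCm38), whose names and coordinates are given; 172 of 177 matched, and no coordinate was converted from mm9. Levels per kb used the union of exons. Overlap meant at least 1 shared base of the gene spans. Transcripts were cut into all stretches of 22 bases and compared with those of every other gene on both strands. Mature miRNAs came from RefSeq. The interval and stretch code was tested on simulated data. The members and gene lists were chosen with earlier results of these data known. Genes were named by rule: the 10 highest means, the 5 highest and 3 lowest per kb of exons, small-RNA hosts, listed nuclear, cardiac and imprinted genes, members overlapping a small RNA row, and 2 on each side of the minimum. Genes named beyond it were chosen after their values were seen. Python 3.11.15, numpy 2.4.6, pandas 2.3.3, scipy 1.17.1 and matplotlib 3.10.9 were used.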

Additional observations from a re-analysis of the deposited data

How the results depend on the processing

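The number of lincRNA genes kept depends on the minimum: 177 at a mean of 10, 297 at 5, 90 at 20 and 25 at 50, since a higher minimum keeps fewer genes, and at 20 the median rose from 20.2 to 36.8. Keeping the genes left out by name (179), taking the class from GENCODE M21 (172) or counting identical means once (175) moved it little. Over protein-coding and lincRNA rows alone the genes' share of the summed mean was 4.89% in place of 4.23%. Without Gm42418 and AY036118, left out after seeing the data, it was 3.31%, and the highest gene's share of the genes' own sum was 8.71% in place of 12.3%. Small-RNA hosts numbered 0 by name, while 21 genes held a small RNA gene of the annotation on their own strand and 38 on either strand. Members overlapping a small RNA row on the same strand numbered 4, from 3 to 5 under the alternatives. Of the 10 genes with the highest level per kb of exons, 3 remained per kb of span and 7 with the longest transcript. No paired analysis was possible because the means cover all samples together; leaving out a replicate was not run for the same reason. The depth of the libraries, and with it the precision of every mean, is unknown.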
